A study of Homo sapiens with 3 samples.

Results

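The distal part of the long arm of chromosome 17, band 17q25, was taken as the hg19 interval on chromosome 17 from 72500000 to 81195210, which is 8.70 Mb long and ends at the chromosome's end. Every peak of trimethylated lysine 36 of histone H3 (H3K36me3) that overlaps this interval was used. These were 897 of 131798 peaks from cells given dihydrotestosterone (DHT) and 664 of 117564 peaks from untreated cells. No peak crossed the inner edge of the interval. The interval makes up 0.281% of the sequence compared and held 1.34% of the covered length after DHT and 1.11% of it in untreated cells.

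The peaks come from chromatin immunoprecipitation sequencing (ChIP-seq) in LNCaP, an established line of human prostate cancer cells that respond to androgens, with 1 library per condition. One library was from cells given 100 nM DHT, a potent androgen, for 4 h in medium (RPMI) labelled red-free. The other was from cells labelled as having no treatment. Both came from cultures kept in RPMI with 10% serum, so the hormone and a change of medium cannot be told apart. An input library completes the 3 samples and was not analysed here. With 1 library per condition there is no test, and every interval given below is a 95% counting interval that treats peaks as independent and leaves out the spread between cultures.

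H3K36me3 is laid down on the bodies of transcribed genes by an enzyme that travels with elongating RNA polymerase II. It accumulates toward the downstream part of a gene, so runs of peaks are expected over transcribed units. Stretches without peaks can have little elongation, little mappable signal or signal that was not called, and which of these holds was not tested here. Band 17q25 is known for many short, widely transcribed genes lying close together, with a few long or tissue-restricted genes among them. It lies farther out on the long arm than 17q24.3 with SOX9, the locus that the series' title names.

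No annotation of hg19 was at hand, so no peak was assigned to a gene, and the genes named in this paragraph are background on the band without values. In the order of the GRCh38 annotation, 186 protein-coding genes follow each other from CD300LB, an immune receptor gene of the inner part of 17q25, to METRNL near the end. They are 15.9% of the 1169 protein-coding genes of the chromosome, while the interval is 10.7% of its hg19 length. CD300LB was taken as a landmark and was not placed on hg19, so the label of a gene-dense end was checked only as far as this count goes. Among genes of metabolism the band holds FASN, the fatty acid synthase that androgens are known to induce in prostate cells, PCYT2 of phospholipid synthesis and GALK1 of galactose use. Genes of RNA processing and translation include SRSF2, a splicing factor, EIF4A3 of the exon junction complex, and ALYREF of mRNA export. The cytoskeletal genes ACTG1, encoding cytoplasmic gamma actin, and SEPTIN9 lie here, as do GRB2, an adaptor of growth factor receptors, and RPTOR, a subunit of the mTORC1 kinase complex. Chromatin genes of the band include H3-3B, which encodes the H3.3 variant that itself carries lysine 36, and CBX2, which encodes a Polycomb protein. RBFOX3, a long gene of neurons, is among the genes known to be silent in most epithelia, and in the GRCh38 order it is followed by ENPP7 and then by CBX2.

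Peaks covered 884 kb, or 10.2%, of 17q25 after DHT and 713 kb, or 8.20%, in untreated cells. DHT peaks therefore covered 1.24 times the length that untreated peaks did, with a counting interval of 1.08 to 1.42. Peaks were 1.35 times as many (1.22 to 1.49). Both libraries thus covered 17q25 several times more densely than the rest of the genome, which stood at 2.11% after DHT and 2.06% in untreated cells, and more densely than the rest of chromosome 17, at 4.28% after DHT and 4.17% in untreated cells. Peaks numbered 103 per Mb of 17q25 after DHT and 76.4 per Mb in untreated cells. The number ratio of 1.35 compares with 1.21 (1.17 to 1.26) on the rest of chromosome 17 and 1.12 (1.11 to 1.13) over the rest of the genome. For peak number, 17q25 thus stood at 1.11 (1.00006 to 1.24) times the rest of chromosome 17. Against the rest of the genome this was 1.21 (1.09 to 1.33).

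The ratio of covered length was higher in 17q25 than over the rest of its own chromosome, where it was 1.03 (0.972 to 1.09). The ratio between these ratios was 1.21 (1.04 to 1.40), and against the rest of the genome it was also 1.21 (1.06 to 1.39). The opposite end of chromosome 17 was taken as the same length of sequence from position 1. Its covered length was 654 kb after DHT and 637 kb in untreated cells, a ratio of 1.03 (0.896 to 1.17), and the ratio of 17q25 over it was 1.21 with an interval of 0.997 to 1.47 that includes 1. Its peak number ratio, 1.25 (1.13 to 1.37), was closer to that of 17q25. Short-arm ends of chromosomes 16 and 19 of the same length had covered length ratios of 1.37 (1.16 to 1.62) and 1.41 (1.21 to 1.63), and the ratios of 17q25 over them, 0.906 (0.730 to 1.13) and 0.880 (0.719 to 1.08), included 1. On covered percentage, 17q25 after DHT lay between the chromosome 19 end, at 10.8%, and the chromosome 16 end, at 7.14%. In untreated cells, where it was at 8.20%, it was above both, at 7.70% on chromosome 19 and 5.22% on chromosome 16.

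Described in 87 windows of 100 kb, the mark formed a row of dense stretches separated by sparse ones, in the same places in both libraries. The median window was 8.83% covered after DHT and 7.38% covered in untreated cells, with quartiles of 3.66% and 15.3% after DHT and 3.24% and 12.2% in untreated cells. Over the genome the median window stood at 0.310% after DHT and 0.288% in untreated cells. At least 10% was covered in 39 windows after DHT and in 31 windows of untreated cells. Across the 87 windows the covered percentages of both libraries went together (Pearson r = 0.923, Spearman rho = 0.938), as they did on the rest of chromosome 17 (r = 0.941, rho = 0.941, 725 windows). Neighbouring windows share genes, so these values describe the maps and carry no p-value.

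**Figure D1:**
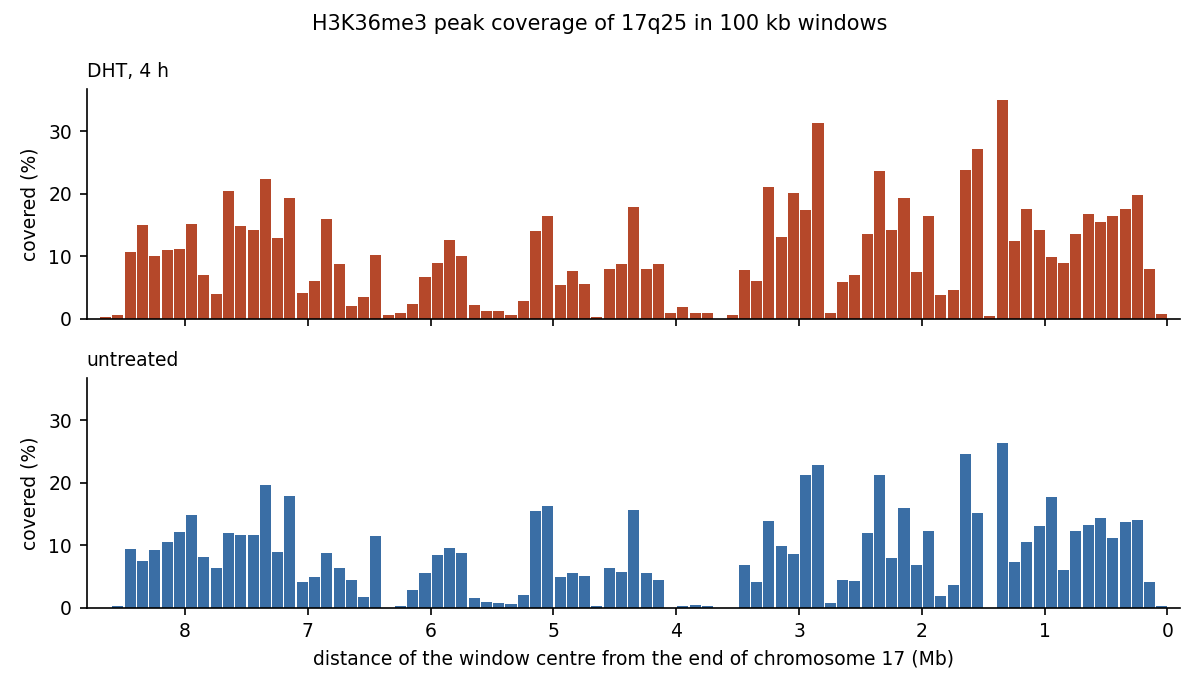
Percentage of each 100 kb window of 17q25 covered by H3K36me3 peaks (vertical axis), by distance of the window centre from the end of chromosome 17 in Mb (horizontal axis), after DHT (upper panel) and in untreated cells (lower panel), 1 library each. Dense stretches and sparse tracts fall in the same places, and the highest bar is the same window in both panels, at 35.0% after DHT and 26.3% in untreated cells.

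The most covered window was the same in both libraries. It ran from 79800001 to 79900000 and was 35.0% covered after DHT, by 15 peaks, and 26.3% covered in untreated cells, by 14 peaks. The window from 78300001 to 78400000 was the second of the DHT map, at 31.2%, and the third of the untreated map, at 22.8%. The window from 79500001 to 79600000 was nearly equal, at 23.7% after DHT and 24.6% in untreated cells. From 78800001 to 78900000 coverage was 23.6% after DHT and 21.3% in untreated cells. These 4 windows were among the 5 most covered of each library. The remaining place was taken after DHT by the window from 79600001 to 79700000, at 27.2% against 15.1% in untreated cells. In untreated cells it was taken by the window from 78200001 to 78300000, at 17.4% after DHT and 21.3% in untreated cells. All 6 of these windows lay in the outer part of the interval, at or beyond 78200001.

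Most of the interval was more covered after DHT. Of the 86 windows with a peak of either library, 74 were more covered after DHT and 12 less. Over the genome 50.7% of windows with a peak were more covered after DHT and 49.2% less, and on the rest of chromosome 17 these shares were 55.9% and 44.1%. In 17q25 the shares were 86.0% and 14.0%. Window shares were not computed for the short-arm ends of chromosomes 16 and 19, where the covered length ratios were 1.37 and 1.41. Windows had more peaks after DHT in 68 cases and fewer in 7. These were 79.1% and 8.14% of the windows with a peak, against 51.3% and 33.9% over the genome and 63.5% and 23.1% on the rest of chromosome 17. The median difference was 1.17 percentage points, and the range ran from -7.88 to 12.0 points. A difference of at least 2 points was found in 33 windows in the direction of DHT and in 4 windows in the direction of untreated cells. These were 38.4% and 4.65% of the windows with a peak, against 6.95% and 5.56% over the genome and 9.93% and 9.12% on the rest of chromosome 17. Coverage itself, which bounds a difference in points, was higher in 17q25 than in either comparison.

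By a stricter rule, a 1.5-fold difference in windows where peaks of either library covered 5 kb or more, 62 windows of 17q25 could be compared. Of these, 13 were higher after DHT, or 21.0%, against 12.1% of the 5424 windows of the genome that met the rule and 8.92% of those on the rest of chromosome 17. A further 2 were lower after DHT, or 3.23%, against 7.80% over the genome and 8.18% on the rest of chromosome 17. The number of windows counted as higher depended on the window size and on the peaks used. It was 31 of 110 in windows of 50 kb, 1 of 26 in windows of 250 kb, and 24 of 52 with only the higher-scoring 50% of each list. At 2-fold it was 2 of 62. Shares over the genome were not computed under these other settings, so these counts stand without a background. A window could meet the 5 kb rule through the DHT library alone, and 3 of the 13 higher windows did. With the 5 kb asked of the mean of both libraries, a rule set after seeing the data, 13 of 62 were higher and 2 lower, against 10.4% and 5.96% of windows over the genome and 7.17% and 7.57% on the rest of chromosome 17.

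**Figure D2:**
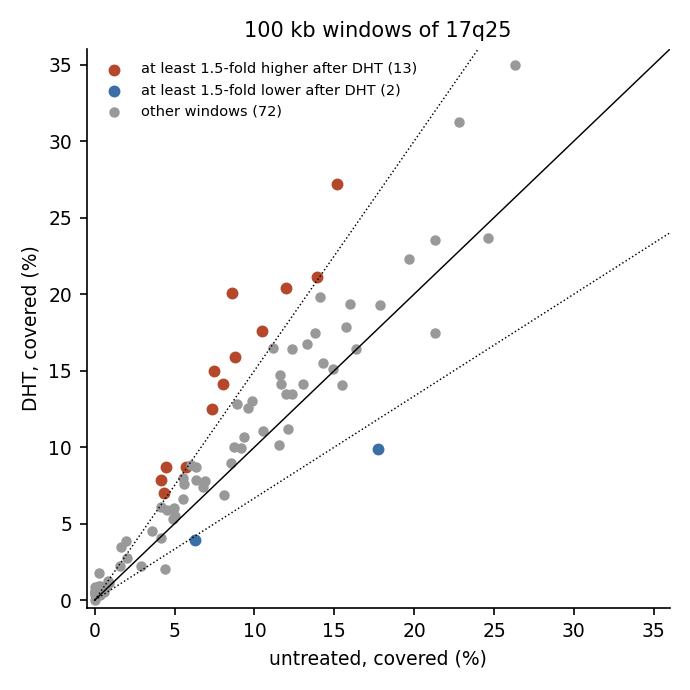
Covered percentage of the 87 windows of 100 kb after DHT (vertical axis) against untreated cells (horizontal axis), 1 library each. The solid line marks equality and the dotted lines 1.5-fold; red points are the 13 windows at least 1.5-fold higher after DHT by the rule in the text, blue points the 2 lower ones, and most points lie above the solid line.

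The windows with the largest differences toward DHT were spread over the interval. The first, from 79600001 to 79700000, was 27.2% covered after DHT and 15.1% in untreated cells, with 10 peaks after DHT and 8 in untreated cells. The next, from 78100001 to 78200000, was 20.1% covered after DHT and 8.61% in untreated cells, and its peak number was 18 after DHT and 6 in untreated cells. The most covered window, from 79800001 to 79900000, was the third, with a difference of 8.67 points. Here the difference came with nearly the same number of peaks, while in the window that begins at 78100001 it came with 3 times as many.

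The window from 73500001 to 73600000 was 20.4% covered after DHT and 12.0% in untreated cells. The window from 78300001 to 78400000 followed with a difference of 8.41 points. From 72800001 to 72900000 coverage was 14.9% after DHT and 7.45% in untreated cells, a 2.01-fold difference. These lie in the inner and the outer part of the band alike. From 77900001 to 78000000 coverage was 21.1% after DHT and 13.9% in untreated cells, and from 74300001 to 74400000 it was 15.9% after DHT and 8.78% in untreated cells.

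Windows that were less covered after DHT were few, and 1 stood out. From 80200001 to 80300000, about 1 Mb from the end, coverage was 9.89% after DHT and 17.8% in untreated cells, although the window held 11 peaks after DHT and 7 in untreated cells. The next window was that from 78200001 to 78300000, at 17.4% after DHT and 21.3% in untreated cells. It lay between the windows that began at 78100001 and 78300001, both among the 8 with the largest difference toward DHT. From 74500001 to 74600000 coverage was 2.04% after DHT and 4.43% in untreated cells, and from 73400001 to 73500000 it was 3.96% after DHT and 6.30% in untreated cells. The other 4 windows of the 8 with the largest difference toward untreated cells differed by -1.41 to -0.938 points. They began at 76000001, 74700001, 73300001 and 79500001.

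**Figure D3:**
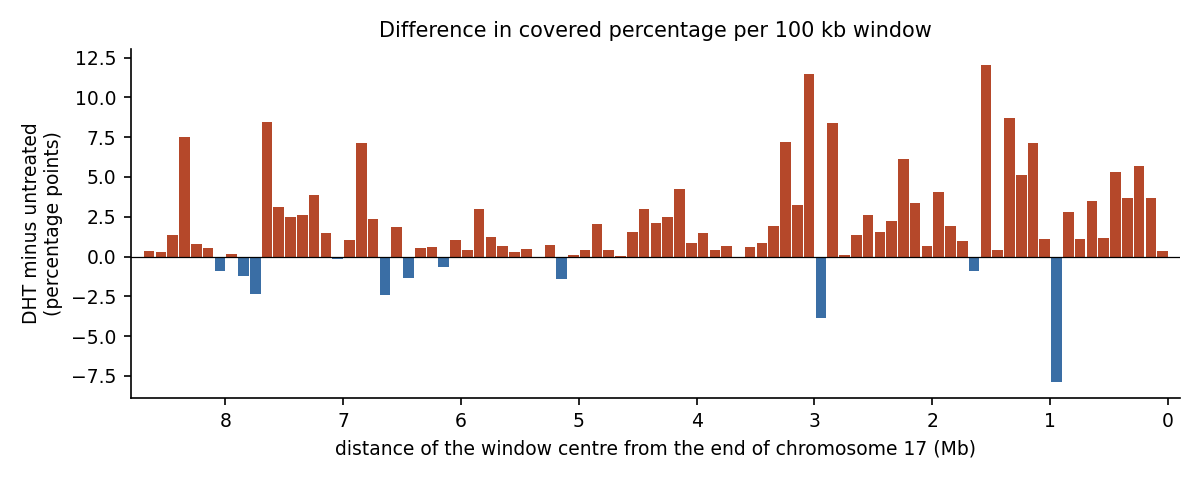
Difference in covered percentage, DHT minus untreated, in percentage points (vertical axis) for each 100 kb window of 17q25, by distance from the end of chromosome 17 in Mb (horizontal axis), 1 library per condition. Red bars above 0 are windows more covered after DHT, which number 74, and the longest blue bar, near 1 Mb, is the window at -7.88 points.

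Of 3 distances from the chromosome end, the nearest was the most covered in both libraries, and the ratio between the libraries was above 1 at each. Within 2 Mb of the end it was 14.1% after DHT and 11.1% in untreated cells, a ratio of 1.27 (0.979 to 1.65). At 2 to 5 Mb it was 9.44% after DHT and 7.20% in untreated cells, a ratio of 1.31 (1.02 to 1.68). From 5 Mb to the inner edge it was 8.63% after DHT and 7.45% in untreated cells, a ratio of 1.16 (0.939 to 1.43). These intervals overlap, so the data do not separate the distances. In steps of 1 Mb, with a shorter last one, covered length was higher after DHT in every step, with ratios of 1.07 to 1.43. The interval of each of these ratios included 1. Coverage did not climb evenly toward the end. The step from 79500001 to 80500000 was 16.3% covered after DHT and 13.3% in untreated cells, and that from 73500001 to 74500000, near the inner edge, 13.8% after DHT and 10.6% in untreated cells, both above the last step. The difference was least from 75500001 to 76500000, at 5.69% after DHT and 5.33% in untreated cells, and greatest in the last step from 80500001 to 81195210, at 13.6% after DHT and 10.2% in untreated cells. Across windows the difference in points went only weakly with distance from the end (r = -0.213, rho = -0.299, 87 windows).

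The inner edge of the interval falls in a stretch without peaks. The last DHT peak before the edge ended at 72443695 and the first inside began at 72548421. In untreated cells the last peak before the edge ended at 72444276 and the first inside began at 72693857. The window just outside, from 72400001 to 72500000, was 4.29% covered after DHT and 3.70% in untreated cells, and the first inside, from 72500001 to 72600000, was 0.325% covered after DHT and held no untreated peak. The last DHT peak of the chromosome ended at 81138195 and the last untreated one at 81133262, which left 57.0 kb without peaks up to the end.

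Sparse tracts interrupted the band. In 20 of the 87 windows under 3% was covered in both libraries, and these windows formed 8 separate tracts. The longest, from 77100001 to 77700000, held 16 DHT peaks covering 5064 bp and 4 untreated peaks covering 1058 bp, and none of them overlapped. It contained the longest stretch without any peak, 146 kb from 77490599 to 77636172. The next tract, from 75500001 to 76000000, held 28 DHT peaks covering 7963 bp and 18 untreated peaks covering 5917 bp, of which 4 in each library overlapped. A tract from 74800001 to 75100000 held 8 DHT and 6 untreated peaks, and the 2 windows at the inner edge held 3 DHT peaks and 1 untreated peak. The other tracts were single windows. The limit of 3% and the tracts were chosen after the values were seen.

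Peaks of the sparse windows were small, low-scoring and rarely matched between libraries. These windows were picked by low coverage in both libraries, so few and narrow peaks and little overlap follow in part from that rule. Their median width was 308 bp after DHT and 320 bp in untreated cells, and their median score rank was at the 28.6th percentile of the whole DHT list and the 24.8th percentile of the untreated list. Of 61 DHT peaks 6 overlapped an untreated peak, and of 33 untreated peaks 6 overlapped a DHT peak. Sparse windows had the highest ratio of peak number, 1.85 (1.21 to 2.82). In the 30 windows covered to at least 10% in both libraries the ratio was 1.23 (1.08 to 1.41), and its interval overlaps that of the sparse windows. These dense windows held 469 DHT and 380 untreated peaks. There the median width was 763 bp after DHT and 880 bp in untreated cells, and 59.7% of DHT and 69.2% of untreated peaks overlapped a peak of the other library. These dense windows made up 546 kb of the covered length after DHT and 458 kb in untreated cells.

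Further long stretches held no peak of either library. One of 99.6 kb, from 79688348 to 79787897, separated the window with the largest difference toward DHT from the most covered window. Others were 104 kb long across the inner edge, from 72444277 to 72548420, 83.7 kb long from 77812591 to 77896279, and 78.7 kb long from 72548746 to 72627486. Stretches of at least 20 kb without a peak of either library numbered 83, with the one at the chromosome end, and made up 37.3% of the interval's length. The median distance between neighbouring peaks of either library was 3565 bp.

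Peaks in 17q25 were wider than on the rest of chromosome 17 and than over the rest of the genome in both libraries, and narrower than at the ends of chromosomes 16 and 19. Median width was 619 bp after DHT and 788 bp in untreated cells, with quartiles of 355 and 1191 bp after DHT and 467 and 1361 bp in untreated cells. On the rest of chromosome 17 the medians were 388 bp after DHT and 440 bp in untreated cells, and over the rest of the genome 353 bp after DHT and 373 bp in untreated cells. In stretches of the same length, they were 784 bp after DHT and 855 bp in untreated cells at the short-arm end of chromosome 16, and 917 bp after DHT and 931 bp in untreated cells at that of chromosome 19. The lower median after DHT went with more narrow peaks. Peaks under 500 bp numbered 363 after DHT and 184 in untreated cells, 1.97 times as many (1.65 to 2.36). Such peaks were also more numerous after DHT elsewhere. Their ratio was 1.38 (1.31 to 1.45) on the rest of chromosome 17 and 1.21 (1.20 to 1.22) over the rest of the genome. Peaks of 500 bp to 2 kb differed less in number, with 259 after DHT and 231 in untreated cells at 500 bp to 1 kb, and 169 after DHT and 168 in untreated cells at 1 to 2 kb.

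At the other extreme, peaks of at least 4 kb numbered 24 after DHT and 10 in untreated cells. They covered 124 kb after DHT and 51.8 kb in untreated cells, a ratio of 2.38 (1.13 to 5.03). In that class the ratio was 1.16 (1.01 to 1.33) over the rest of the genome and 0.682 (0.411 to 1.13) on the rest of chromosome 17. Each of these intervals overlaps that of 17q25. All 17q25 peaks of at least 2 kb together covered 346 kb after DHT and 249 kb in untreated cells, a ratio of 1.39 (1.03 to 1.89). On the rest of chromosome 17 the covered length in peaks of at least 2 kb was 447 kb after DHT and 630 kb in untreated cells, a ratio of 0.709 (0.566 to 0.888), and the intervals of these ratios do not overlap. Over the rest of the genome the ratio was 0.918 (0.868 to 0.970). Such wide peaks made up 39.2% of the covered length of 17q25 after DHT and 34.9% in untreated cells. Their number was 106 after DHT and 81 in untreated cells, a ratio of 1.31 (0.980 to 1.75) whose interval includes 1. At the opposite end of the chromosome 144 kb after DHT and 184 kb in untreated cells lay in such peaks. At the short-arm end of chromosome 16 it was 273 kb after DHT and 141 kb in untreated cells, a ratio of 1.94, and at that of chromosome 19 it was 487 kb after DHT and 277 kb in untreated cells, a ratio of 1.76, both above the ratio in 17q25.

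**Figure D4:**
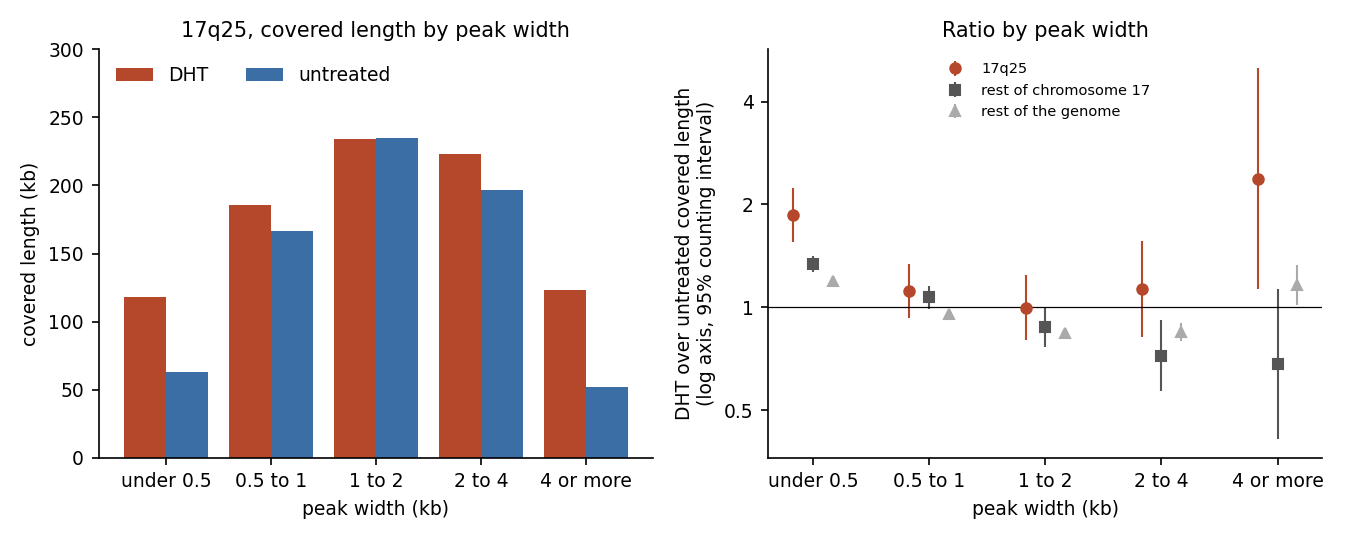
Left, length covered in 17q25 by peaks of each width class (kb) after DHT and in untreated cells, 1 library each. Right, DHT over untreated ratio of covered length per width class on a log axis, with 95% counting intervals. Parts are 17q25, the rest of chromosome 17 and the rest of the genome. In peaks of 4 kb or more the ratio is 2.38 (1.13 to 5.03) in 17q25. It is 0.682 (0.411 to 1.13) on the rest of chromosome 17 and 1.16 (1.01 to 1.33) over the rest of the genome, and these intervals overlap.

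The widest DHT peak ran from 79058124 to 79064753, 6630 bp, of which 39.98% was covered by a single untreated peak of 2651 bp. The second, from 73565800 to 73572381, was 6582 bp wide and the third, from 78358892 to 78365385, 6494 bp wide, and untreated peaks covered 25.7% and 33.8% of them. The fourth, from 80013658 to 80019908, and the fifth, from 79861158 to 79866963, were 6251 and 5806 bp wide and had no untreated peak. Their scores of 88.9 and 65.3 stood at the 52.5th and 27.0th percentiles of the DHT list. The score is the authors' own value per peak, its scale is not stated, and it was used to rank peaks within a list.

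Among untreated peaks, the widest ran from 80199945 to 80206853. It was 6909 bp wide and scored 75.8, and 23.2% of it was covered by a DHT peak of 1604 bp. It begins at the edge of the window with the largest difference in points toward untreated cells. The second, from 79800191 to 79805972, was 94.6% covered after DHT by 1 peak, and the fourth, from 78318463 to 78323995, 96.0%. The third, from 73812130 to 73817767, was 5638 bp wide and scored 63.0, without a DHT peak. The fifth, from 73893644 to 73898907, was 76.5% covered by 2 DHT peaks.

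Of the peaks of at least 2 kb, 25 of 106 after DHT and 9 of 81 in untreated cells had no counterpart. These are 23.6% after DHT (15.9% to 32.8%) and 11.1% in untreated cells (5.21% to 20.05%, exact binomial intervals). On the rest of the genome the shares were 23.3% after DHT and 8.76% in untreated cells, both inside the intervals of 17q25. Wide peaks without a counterpart scored lower than those with one, with medians of 89.2 without and 157 with a counterpart after DHT, and 73.0 without and 133 with one in untreated cells.

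The highest DHT score was 1310, at the peak from 79477588 to 79479759, and the highest untreated score, 671, was at the same place, from 79477586 to 79479567. This pair shared 1980 bp. After DHT the second peak ran from 73774646 to 73775386 and scored 763, and it lay within the fourth untreated peak, from 73774438 to 73775392, which scored 470. These DHT peaks were 2172 bp and 741 bp wide. The window around the first, from 79400001 to 79500000, was 4.54% covered after DHT and 3.58% in untreated cells. That around the second, from 73700001 to 73800000, was 14.2% covered after DHT and 11.7% in untreated cells.

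The third DHT peak by score, from 79871199 to 79872701, scored 640, and an untreated peak scoring 183 covered 97.7% of it. The fourth, from 80699074 to 80699631, scored 545 and was fully covered by an untreated peak that scored 352. The fifth, from 77767883 to 77769462, scored 531, and the untreated peak there scored 97.9. In untreated cells the second, the third and the fifth peak scored 510, 475 and 464. They ran from 76044945 to 76046541, from 79612430 to 79613219 and from 79365033 to 79366392. DHT peaks covered 84.0%, 100.0% and 100.0% of them.

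Score ranks placed 17q25 in the middle of both lists. The median rank was at percentile 49.96 of the DHT list and 49.83 of the untreated list. Of its peaks, 11.1% after DHT (9.16% to 13.4%) and 11.4% in untreated cells (9.12% to 14.1%) were in the top-scoring 10% of their list. The dense coverage of the band thus came with more and wider peaks than over the rest of the genome, while their score ranks lay around the middle of each list. Peaks per Mb were more numerous still at the opposite end of chromosome 17, at 107 after DHT and 85.7 in untreated cells. Peaks were wider at the ends of chromosomes 16 and 19.

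Of the DHT peaks in 17q25, 51.1% (47.7% to 54.4%) were overlapped by an untreated peak, against 48.4% (48.2% to 48.7%) over the rest of the genome. Untreated peaks met a DHT peak in 65.7% of cases (61.9% to 69.3%), against 56.2% (54.8% to 57.7%) on the rest of chromosome 17 and 52.2% (51.9% to 52.5%) over the rest of the genome. The share of untreated peaks was 69.2% (64.5% to 73.6%) at the short-arm end of chromosome 16, 65.9% (61.7% to 69.8%) at that of chromosome 19 and 60.5% (56.9% to 64.1%) at that of chromosome 17, and the interval of each overlaps that of 17q25. Wider peaks have more sequence to overlap, and the part of peak width in this was not tested beyond the following class. The DHT list was also denser here, covering 10.2% of 17q25 and 2.11% of the rest of the genome, and the part of this density was not tested. Among peaks under 2 kb, 62.4% (58.4% to 66.4%) of the untreated ones were overlapped in 17q25 and 51.2% (50.9% to 51.5%) elsewhere in the genome, and their median widths were 707 bp in 17q25 and 367 bp elsewhere. Among untreated peaks of at least 2 kb the shares were 88.9% (80.0% to 94.8%) in 17q25 and 91.2% (90.2% to 92.2%) elsewhere.

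Sequence covered in both libraries came to 440 kb. DHT-only sequence came to 445 kb and untreated-only sequence to 273 kb. Shared sequence was 49.7% of DHT-covered length, against 50.8% on the rest of chromosome 17 and 48.4% over the rest of the genome. It was 61.7% of untreated-covered length, against 52.2% on the rest of chromosome 17 and 49.6% over the rest of the genome. This untreated share was 67.1% at the short-arm end of chromosome 16, 63.9% at that of chromosome 19 and 55.8% at that of chromosome 17. Here too the part of the denser DHT list was not tested. Where peaks met, they mostly met singly. Of the 458 overlapped DHT peaks, 23 touched at least 2 untreated peaks, and of the 436 overlapped untreated peaks, 38 touched at least 2 DHT peaks. These were 5.02% of the DHT and 8.72% of the untreated peaks. Over the rest of the genome the shares were 2.32% and 6.06%, and on the rest of chromosome 17 they were 2.60% and 7.80%. Overlapped peaks scored higher than others, with medians of 116 for overlapped and 70.2 for other DHT peaks, and 95.2 for overlapped and 66.5 for other untreated peaks.

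Peaks of either library that lay no more than 5 kb apart were joined, which gave 409 blocks in 17q25. Of these, 262 held peaks of both libraries, 107 only DHT peaks and 40 only untreated peaks. The blocks with only DHT peaks were 26.2% of those in 17q25, against 26.3% over the genome and 26.0% on the rest of chromosome 17, which is the background share. Those with only untreated peaks were 9.78%, against 20.7% over the genome and 15.8% on the rest of chromosome 17. Blocks of at least 10 kb numbered 74. They had a median length of 14.9 kb and made up 17.7% of the interval, against 11.3% of the rest of chromosome 17.

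The longest block, 99.5 kb from 78276838 to 78376288, held 26 DHT peaks covering 35001 bp and 15 untreated peaks covering 27810 bp. It reaches over the window that was second in coverage after DHT. The next, 52.0 kb from 79547002 to 79598975, had 13065 bp covered after DHT and 11811 bp in untreated cells. A block of 48.9 kb from 78864992 to 78913878 had 16295 bp covered after DHT and 11436 bp in untreated cells. A block of 47.4 kb from 76060807 to 76108192 was the only 1 of the 5 longest that was more covered in untreated cells, with 12999 bp after DHT and 14362 bp in untreated cells. The fifth, 45.8 kb from 78175010 to 78220857, had 15146 bp covered after DHT and 7311 bp in untreated cells.

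In 39 blocks at least 10 kb long, peaks of either library covered 5 kb or more. By a 2-fold rule, 8 of these, or 20.5%, were more covered after DHT, against 8.07% of the 2676 such blocks of the genome and 9.62% on the rest of chromosome 17. In the opposite direction there was 1, or 2.56%, against 2.73% over the genome and 6.41% on the rest of chromosome 17. At 4-fold 1 block was higher after DHT (2.56%, against 1.57% over the genome) and none lower (0.00%, against 0.486%). On the rest of chromosome 17, 2.56% were 4-fold higher after DHT and 1.28% lower. Of the 8 blocks, 7 had less than 5 kb covered in untreated cells and met the rule through the DHT library alone, so their count supports no difference. With the 5 kb asked of the mean of both libraries, a rule set after seeing the data, 6 of 33 blocks were higher (18.2%, against 5.32% over the genome and 3.51% on the rest of chromosome 17) and 1 lower (3.03%, against 1.63% and 6.14%).

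The block that passed 4-fold ran from 74385634 to 74401709. Within its 16.1 kb, 4 DHT peaks covered 10544 bp and 1 untreated peak covered 1542 bp, a 6.84-fold difference. The DHT peaks scored 78.7 to 133 and the untreated peak 76.9. Nearly all of the untreated peak, 1497 bp, was covered after DHT. DHT peaks thus filled 65.6% of this block and the untreated peak 9.59%.

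Inside the inner part of the band, 4 more blocks differed at least 2-fold. From 72815452 to 72834539, 10107 bp were covered after DHT and 3801 bp in untreated cells. From 73624011 to 73640222 it was 7272 bp after DHT and 2187 bp in untreated cells, and from 73746704 to 73759709 it was 5877 bp after DHT and 1741 bp in untreated cells. From 73558574 to 73572507, 9108 bp were covered after DHT and 4455 bp in untreated cells, by 2 peaks in each library, and this block holds the second widest DHT peak. Scores of the DHT peaks in the 73746704 block ran from 53.8 to 85.7, no higher than the DHT list's median of 85.7, while in the 73558574 block they were 133 and 220.

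Farther out, 3 blocks differed in the same direction by at least 2-fold. From 77073524 to 77088201, at the inner edge of the longest sparse tract, 7766 bp were covered after DHT and 3336 bp in untreated cells. From 77920078 to 77952333 it was 11697 bp after DHT and 4914 bp in untreated cells. The block from 78175010 to 78220857, already described, was the longest of these.

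The single block in the opposite direction, from 80199945 to 80236493, was 36.5 kb long. It held 8 DHT peaks covering 8096 bp and 5 untreated peaks covering 16263 bp. Untreated scores ran from 75.8 to 297, with a median of 213, and DHT scores from 50.9 to 342, with a median of 94.1. This block carries the widest untreated peak and an untreated peak of 3340 bp, from 80208374 to 80211713, that scored 213 and had no DHT peak. The untreated peaks in it were fewer and covered more sequence than the DHT peaks.

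**Figure D5:**
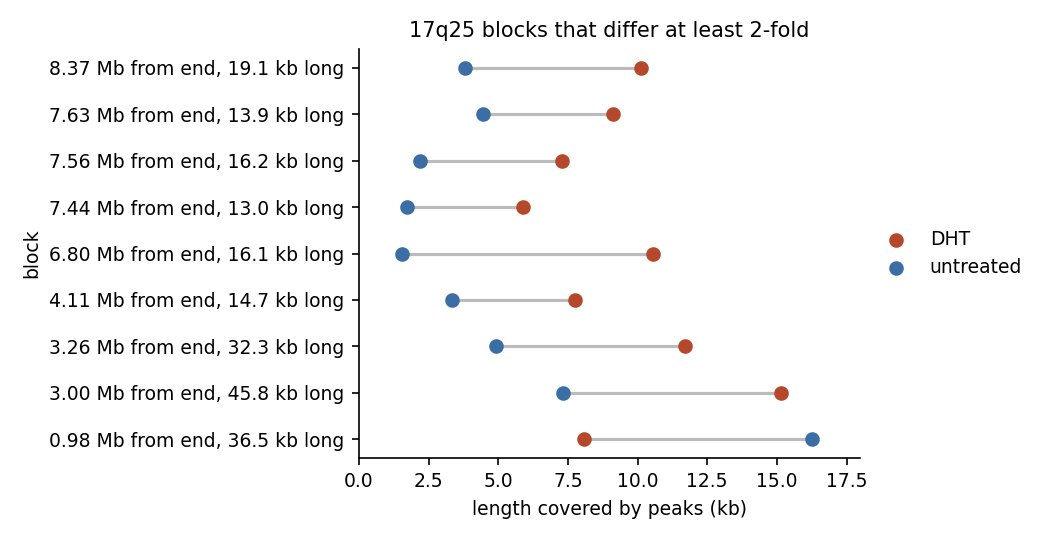
Length covered by peaks in kb (horizontal axis) in the 9 blocks of 17q25 that differ at least 2-fold, after DHT and in untreated cells, 1 library each, ordered from the inner edge (top) to the chromosome end (bottom) and labelled by distance from the end in Mb and block length in kb. In 8 blocks the DHT point lies to the right, and in the lowest the untreated point lies at 16263 bp and the DHT point at 8096 bp.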

How the data were processed

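The series holds 3 samples. Peak lists of the DHT and the untreated H3K36me3 library were used, and the input was not analysed here. The authors deposited for each library its own list of peaks with a score per peak, ranging from 50 to 3100. MACS called the peaks, per the peak names in column 4, and hg19 is the build, per the file names. The caller's version, settings and control, the aligner and the read numbers were not given. The depth behind a peak is therefore unknown. A broad mark called as short peaks can appear in pieces, and covered length does not measure the level of the mark.

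Coordinates are printed counting from 1. Only nuclear chromosomes were used. Length of sequence was taken up to the last peak of a chromosome, and up to the stated end for chromosome 17. Overlap (minimum 1 bp) gave the same counts with bedtools 2.31.1 and with cumulative lengths in NumPy 2.4.6 under Python 3.11.15. All 7 checks on simulated data, with 2000 peaks per list or with simulated windows, gave the known answer. Those on windows made doubled or unchanged could not fail, so they do not bear on the 1.5-fold window rule. Intervals for covered length sum squared peak widths, those for peak numbers are Poisson intervals on the log scale, and those for shares are exact binomial ones (SciPy 1.17.1). A peak was assigned to the window that holds its midpoint. The text names the 5 most covered windows of each library, the 8 windows with the largest difference each way, the 5 longest blocks, blocks that differ 2-fold, the 5 widest and 5 highest-scoring peaks of each library, and the 5 longest gaps, in part. The interval, the rules and the lists were chosen with earlier results of these data known. Width classes, distances, steps and sparse tracts were set after values were seen. Alternatives were the higher-scoring 50% of each list, equal covered length, peaks joined at 1 kb or 5 kb, stricter overlap, and other windows and thresholds. Gene names come from RefSeq's GRCh38.p14 table, with none of its coordinates.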

Additional observations from a re-analysis of the deposited data

How the results depend on the processing

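Of 79 recomputed values, 48 stayed within the counting interval, or, for counts of windows and blocks, within 1.5 times the value reported. The ratio of covered length, 1.24, and that of peak number, 1.35, stayed above 1 under every setting run. Joined at 5 kb they were 1.497 and 1.10 (the interval of the peak number ratio, 0.953 to 1.26, includes 1), and with peaks scoring at least 100 in both lists, a setting chosen after seeing the data that assumes a shared score scale, 1.43 and 1.56. The ratio against the rest of chromosome 17, 1.21, ranged from 1.19 to 1.32, and its interval included 1 only when joined at 5 kb (0.959 to 1.59). Covered percentages after DHT and in untreated cells were 6.51 and 4.97 in the higher-scoring 50% of the lists, 21.4 and 14.3 joined at 5 kb, and 5.52 and 3.86 at scores of at least 100. DHT and untreated peaks overlapped came to 64.4% and 78.2% joined at 5 kb, 45.5% and 57.7% with at least 50% of the peak covered, 34.9% and 47.1% with 50% in both directions, and 46.6% and 71.0% at scores of at least 100, where 33.2% of covered sequence was shared, against 38.0% in all peaks. Windows higher and lower after DHT, 13 and 2, numbered 24 and 2 in the higher-scoring 50%, 35 and 2 joined at 5 kb, 31 and 4 in windows of 50 kb, 1 and 0 in windows of 250 kb, 16 and 1 in windows shifted by 50 kb, 9 and 1 with at least 10 kb covered, 2 and 0 at 2-fold, and 24 and 4 at scores of at least 100. Other windows and other thresholds alter what is counted. With the higher-scoring 50% fewer windows could be compared, 52 against 62, while more were higher after DHT. Why the counts moved was not tested. Shares over the genome were not computed under these settings, so the counts stand without a background. No paired analysis was possible because each condition has 1 library. Read depth is unknown, so a stretch without a peak shows only that no peak was called there.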
